A study of Mus musculus with 14 samples.

Results

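Vascular smooth muscle cells (vSMCs) of the mouse brain were examined in the 552 nuclei that the authors' clustering had labeled vSMCs, out of 31324 brain nuclei with 21 labels. The nuclei came from vascular fragments enriched from brain by Ficoll centrifugation, in a study of mice that lost *Tgfbr1*, a type I receptor for TGF-β, from endothelial cells (ECs) after birth. The CKO library was made from *Cdh5CreER;Tgfbr1 CKO/-* mice (written with VEcadCreER in the labels), given 4-hydroxytamoxifen (4HT) from P3 to P5. The control library is labeled wild type, and neither its alleles nor whether it received 4HT is stated for the brain samples. Each library pooled 2 brains, at P14 by the paper and from young adults by the series text, and both were made with the PIPseq 4PLUS kit. The *Cdh5* (VE-cadherin) promoter drives Cre in ECs, so that vSMCs were not the cells in which *Tgfbr1* was to be deleted, although by the notation every cell of the CKO mice carries 1 deleted and 1 conditional allele. There is no replicate, since each genotype has 1 library. The values below compare 2 libraries, not genotypes, and no test was made.

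vSMCs wrap arteries and arterioles, and to a lesser extent veins, in the layer outside the endothelium, where their contraction sets the width of the vessel and with it the flow of blood to the brain. Force comes from smooth muscle actin and myosin and is switched on by calcium, which enters through voltage-gated channels or leaves internal stores, and vSMCs also build the elastic and collagen matrix of the vessel wall. TGF-β, Notch ligands and PDGF from the endothelium are known to recruit and mature them, and the transcription factor SRF with its partner myocardin switches on most of their contractile genes.

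The control library held 449 vSMC nuclei with 1546680 UMIs and the CKO library 103 with 258349. Median depth was 1516 UMIs per nucleus in control and 1103 in CKO nuclei. Levels are given as UMIs summed over the vSMC nuclei of a library, scaled to counts per 1000000 of their UMIs (CPM), and ratios are CKO over control. The intervals given are at 95% and stand for counting error only, not for differences between mice or preparations. Of the barcodes, 2 occurred in both libraries, and 0 of these were labeled vSMCs.

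All 4 markers of the cell type were detected under the label in both libraries. *Acta2*, which codes for smooth muscle actin, was at 2831 CPM in control and 2624 in CKO nuclei, and in ECs at 62.4 and 56.0. *Myh11*, the smooth muscle myosin heavy chain, was at 793 and 631 CPM, against 16.5 and 15.6 in ECs. *Tagln*, an actin-binding protein of smooth muscle, was at 683 and 573 CPM, against 14.7 and 19.0 in ECs. All 3 were therefore far above their endothelial level in both libraries. *Cnn1*, which codes for calponin, was at 76.3 and 85.2 CPM, and had 0 UMIs in 2475 control and 2944 CKO EC nuclei. Since the label may rest on the same genes, these levels are a description.

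**Figure D1:**
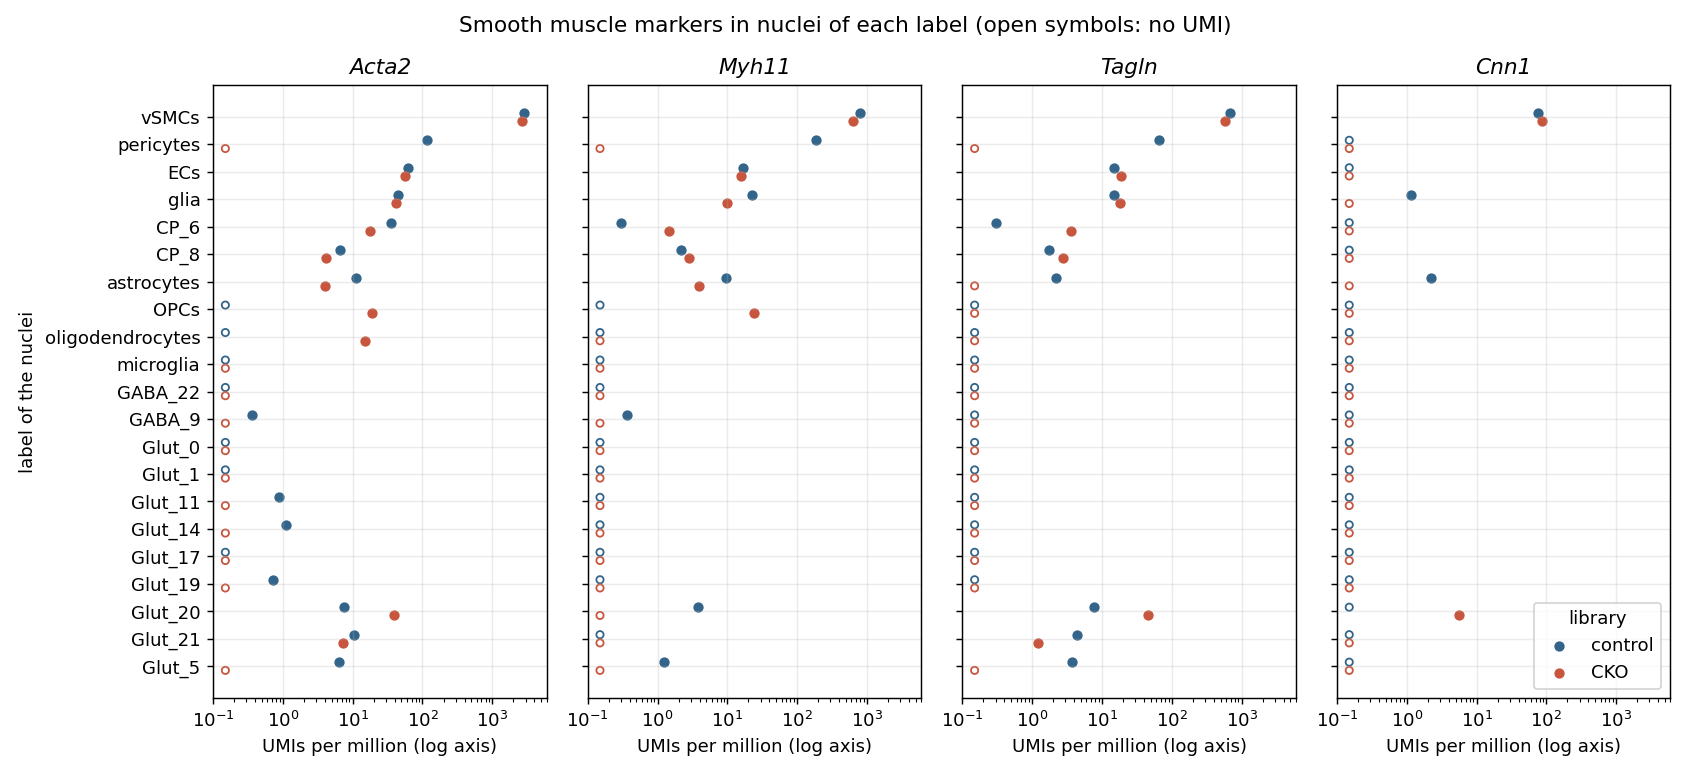
Level of the 4 smooth muscle markers in nuclei of each label, for the control (blue) and CKO (red) library, on a log axis. Open symbols mark labels with no UMI of the gene.

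Most vSMC nuclei also held endothelial transcripts. A UMI of at least 1 of 10 endothelial markers was found in 415 of 449 control (92.4%) and 95 of 103 CKO nuclei (92.2%), against 4.67% and 3.57% of astrocytes and 26.4% and 50.0% of pericytes. All 10 markers were detected, *Ptprb* with the most UMIs, and their summed level was 7473 CPM in control and 7788 in CKO nuclei (ratio 1.04, 0.993 to 1.09). The ratio was 0.745 (0.648 to 0.854) in nuclei with under 1000 UMIs, 0.856 from 1000 up to 3000 and 1.13 above. In nuclei with UMIs of a Y chromosome gene and none of *Xist*, described below, the sum was 11691 and 7671 CPM. In ECs the same sum was 16477 and 12663 CPM. Among vSMC nuclei with at least 5 UMIs of smooth muscle and endothelial markers together, those with between 10 and 90% endothelial UMIs were 289 of 430 in the control (67.2%) and 70 of 95 in the CKO library (73.7%). By the same measure 2.07% and 1.62% of ECs were mixed, 30 of 108 control glia (27.8%) and 9 of 26 CKO glia (34.6%), and 6 of 20 control and 0 of 2 CKO pericytes, so that mixed nuclei were not confined to vSMCs. The vSMC profile is thus one in which endothelial and smooth muscle transcripts are found together in both libraries, and their source was not tested. Here and below, glia are the nuclei under that label, whose high level of fibroblast markers is given with *Col1a1*.

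The sex chromosome genes set the libraries apart. *Xist*, which is transcribed from the inactive X of females, had 3326 UMIs in control vSMCs and 4 in CKO vSMCs. Of the control nuclei, 200 held *Xist* UMIs and none of a Y chromosome gene, 37 held Y UMIs and no *Xist*, 93 held neither and 119 held both (26.5%, 22.5 to 30.8). In the CKO library 46 held Y UMIs without *Xist*, 1 held *Xist* without Y UMIs, and 0 held both. Sex and genotype cannot be told apart in the comparison of the libraries as a whole. Nuclei with both were more frequent among control vSMCs than among control ECs (11.5%), glia (8.48%) or the neuron cluster Glut_0 (13.3%), although the median depth of that cluster was 5004 UMIs. These 119 nuclei had a median of 5476 UMIs and held 909210 UMIs, or 58.8% of all UMIs of control vSMCs. Values by sex class are therefore given below for a number of genes.

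Nuclei labeled vSMCs made up a smaller share of the CKO library. They were 449 of 16649 control nuclei (2.70%, 2.46 to 2.95) and 103 of 14675 CKO nuclei (0.702%, 0.573 to 0.851), a ratio of 0.260. Other labels also differed in number: pericytes were 201 in control and 22 in CKO nuclei, glia 1227 and 419, and ECs 2475 and 2944. Among nuclei labeled ECs, pericytes or vSMCs, the vSMC share was 14.4% in control and 3.36% in CKO nuclei. Counted by at least 2 of the 4 markers in place of the label, the nuclei were 442 (2.65%) and 159 (1.08%), a ratio of 0.408. The labels of these nuclei differed between the libraries: 340 of the 442 control nuclei (76.9%) were labeled vSMCs and 58 (13.1%) ECs, while of the 159 CKO nuclei 67 (42.1%) were labeled vSMCs and 80 (50.3%) ECs. Among nuclei with Y and without *Xist* UMIs, vSMCs were 37 of 2485 in the control (1.49%) and 46 of 6469 in the CKO library (0.711%), a ratio of 0.478. Whether vessel fragments were recovered alike in both preparations was not tested.

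The UMIs of the markers were divided accordingly. Of all *Acta2* UMIs of a library, vSMC nuclei held 87.4% in control and 59.5% in CKO nuclei, and EC nuclei 7.23% and 33.7%. For *Myh11* the vSMC nuclei held 87.1% and 57.0%, and the ECs 6.82% and 37.4%. For *Tagln* the vSMC nuclei held 88.2% and 48.8%, and the ECs 7.09% and 42.9%. *Cnn1* differed from these 3, with 95.9% and 95.7% of its UMIs in vSMC nuclei. Pericytes, the mural cells of capillaries, held UMIs of *Acta2* in 4.48% of 201 control nuclei and had 0 UMIs of *Acta2*, *Myh11* and *Tagln* in 22 CKO nuclei, at median depths of 502 and 403 UMIs.

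At the level of single nuclei, *Acta2* was detected in 84.4% of control and 77.7% of CKO vSMCs, *Myh11* in 65.7% and 52.4%, *Tagln* in 63.5% and 60.2%, and *Cnn1* in 15.1% and 10.7%. In astrocytes, with median depths of 1150.5 and 578.5 UMIs, *Acta2* was detected in 0.531% and 0.155%. With each nucleus thinned to 500 UMIs, which left out 49 control and 18 CKO nuclei, the shares were 58.0% and 58.8% for *Acta2*, 34.0% and 27.1% for *Myh11*, 33.3% and 37.6% for *Tagln*, and 6.50% and 2.35% for *Cnn1*. At equal depth the intervals of the 2 libraries overlapped for each of the 4 genes. The control nuclei with UMIs of 0, 1, 2, 3 or all 4 markers numbered 46, 63, 111, 174 and 55, and the CKO nuclei 21, 15, 18, 40 and 9. Nuclei with 0 or 1 marker were 24.3% of control and 35.0% of CKO vSMCs, and their summed level of 12 fibroblast markers was 4838 and 7029 CPM, against 2368 and 3677 CPM in nuclei with at least 2.

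The contractile level of a nucleus varied with its depth. In control nuclei with under 1000 UMIs, 36 genes of the contractile apparatus summed to 48778 CPM, in those with 1000 and up to 3000 UMIs to 21564, and in those with at least 3000 UMIs to 13724. In the CKO library the same sums were 33489, 16899 and 12414 CPM. In both libraries the deeper nuclei thus had the lower contractile level, and in each class the CKO value was the lower, with ratios of 0.687 (0.641 to 0.735), 0.784 (0.732 to 0.839) and 0.905 (0.864 to 0.947). The deepest class held 75.7% of control and 65.7% of CKO vSMC UMIs and so sets most of the summed values. Its nuclei held more neuronal transcripts in the control library, where 12 neuron markers summed to 2246, 4895 and 6434 CPM from the shallowest to the deepest class, while in the CKO library they were at 3779, 1618 and 4593 CPM. The part of these transcripts in the contractile level was not tested.

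**Figure D2:**
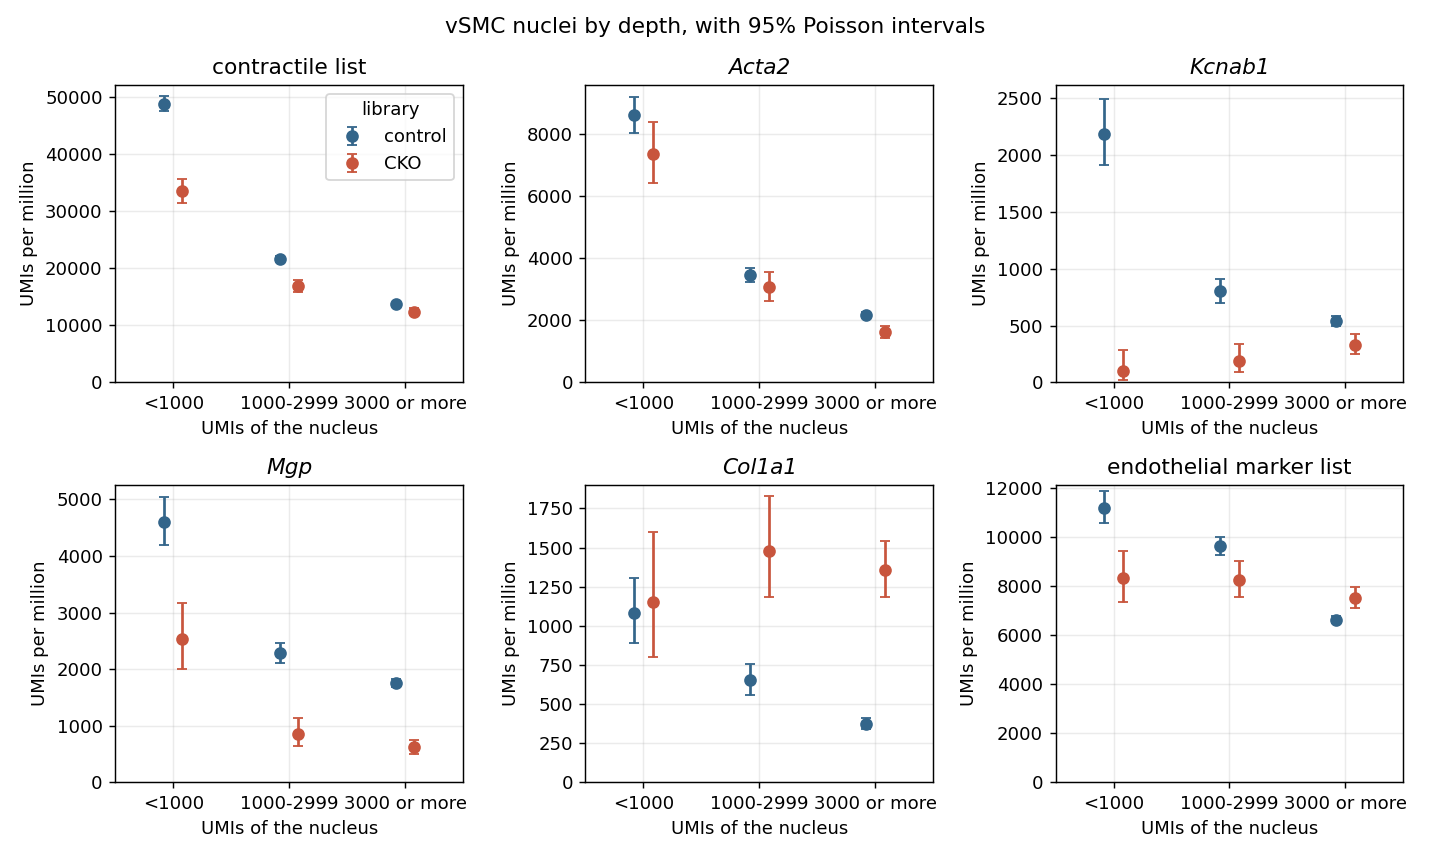
Levels in vSMC nuclei of 3 depth classes, for the control (blue) and CKO (red) library, with 95% Poisson intervals. The lists are the 36 genes of the contractile apparatus and the 10 endothelial markers.

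The genes that set vSMCs apart from all other brain nuclei included the 4 markers, on which the label itself may rest. By the smaller fold of the 2 libraries *Cnn1* was first (672-fold in control and 1787-fold in CKO nuclei), on 5 and 1 UMIs in the other nuclei. Next were the smooth muscle actin gene *Actg2* (208 and 376), *Acta2* (216 and 175), *Myh11* (210 and 158), *Gkn3* (149 and 140) and *Tagln* (232 and 114). They were followed by *Fhl5*, a LIM domain cofactor (113 and 199), *Eln*, which codes for elastin (104 and 290), *Mustn1* (185 and 94.9), the actin nucleator *Lmod1* (79.0 and 128), *Fbln5*, a builder of elastic fibers (61.6 and 66.1), the tropomyosin *Tpm2* (126 and 52.1), *Myom1*, *Crispld2*, and *Myocd*, which codes for myocardin (39.5 and 60.0). Against pericytes, *Eln* and *Acta2* stood first among genes higher in vSMCs, and *Atp13a5* (47.9- and 48.3-fold) and *Abcc9* among those lower. *Crip1*, *Meg3*, *Ptprd*, *Dlg2*, *Celf2*, *Hbb-bt* and the mitochondrial genes *mt-Co2* and *mt-Atp6* were also among the 10 higher than in pericytes, with 0 UMIs in the 9213 UMIs of the CKO pericytes. Against ECs, *Cnn1*, *Actg2*, *Myocd*, *Acta2* and *Myh11* were the first 5 higher, and Prnd, *Apln* and Mycn the first 3 lower.

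*Tgfbr1* itself had 102 UMIs in control and 9 in CKO nuclei, or 65.9 and 34.8 CPM, a ratio of 0.528 (0.235 to 1.04). In ECs, where Cre was active, it had 401 and 431 UMIs, or 69.1 and 62.9 CPM, a ratio of 0.910. The reads lie toward the 3′ end of transcripts, and whether they cover the deleted exon was not examined, so the counts do not measure deletion.

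Of 2109 genes with at least 200 UMIs in vSMCs, 12 (0.569%) were at least 2-fold higher and 70 (3.32%) at least 2-fold lower in the CKO library. Of 6796 genes with at least 50 UMIs, 2.25% were higher and 5.86% lower by this measure, with a median log2 ratio of 0.09. Lists of genes are described below by their members with at least 50 UMIs, against these shares and this median.

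**Figure D3:**
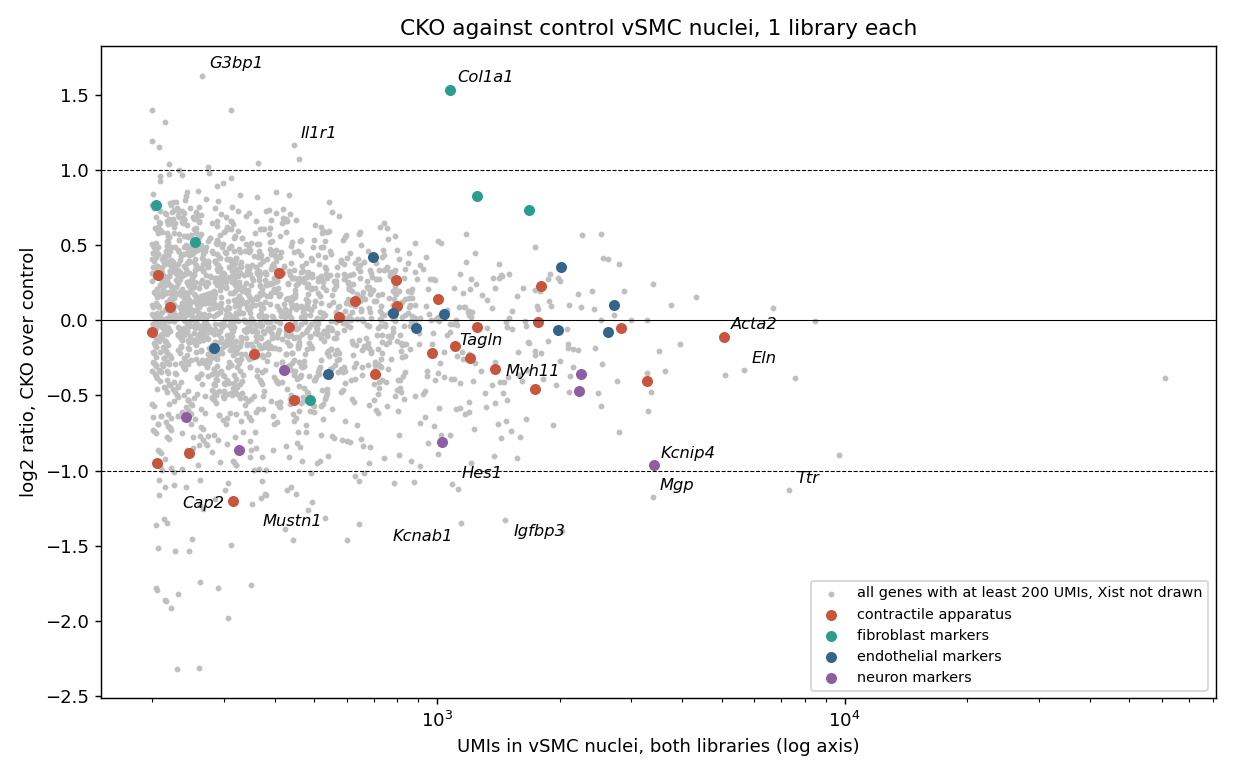
Log2 ratio of CKO over control in vSMC nuclei against the UMIs of each gene with at least 200 UMIs; dashed lines mark 2-fold. Genes of 4 lists are colored, Xist lies below the range drawn, and no test was made.

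In the UMIs summed over all vSMC nuclei, the median contractile gene lay near that of the other genes. Of 35 with at least 50 UMIs, 0 were 2-fold higher and 2 lower, 14 were above and 21 below a ratio of 1, and the median log2 ratio was -0.05. Their summed level, with *Acta2* the most abundant, was 17431 CPM in control and 15905 in CKO nuclei (ratio 0.912, 0.883 to 0.943). Of the markers, *Acta2* had a ratio of 0.927 (0.854 to 1.01), *Myh11* 0.796 (0.672 to 0.938), *Tagln* 0.838 (0.701 to 0.997) and *Cnn1* 1.12 (0.674 to 1.77). *Myl6*, a light chain of myosin, was at 1878 and 1417 CPM (0.755, 0.675 to 0.842), and the regulatory light chain *Myl9* at 1001 and 728 CPM (0.727, 0.622 to 0.846). *Cald1*, which codes for the actin-binding caldesmon, was at 1574 and 1517 CPM (0.964), and the adhesion protein gene *Lpp* at 971 and 1138 (1.17). The light chains thus lay below, and caldesmon near, a ratio of 1. *Cap2*, an actin regulator, was at 191 and 81.3 CPM (0.426, 0.260 to 0.664), the only contractile gene with at least 200 UMIs past 2-fold, and *Synm*, an intermediate filament gene, had 182 and 15 UMIs (0.493, 0.271 to 0.836).

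The contractile ratio depended on which nuclei were compared. Without the 119 control nuclei with both *Xist* and Y UMIs the median log2 ratio was -0.51, in an alternative chosen after seeing the data. Among nuclei with Y and no *Xist* UMIs, 37 in control and 46 in CKO nuclei, it was -1.17, and *Acta2* was at 5172 and 2108 CPM (ratio 0.408), *Myh11* at 1870 and 513 (0.274) and *Tagln* at 1331 and 406 (0.305). *Cnn1*, above 1 in all nuclei, was there at 303 and 76.2 CPM (0.251, 0.118 to 0.528), on 18 and 15 UMIs. Control nuclei with *Xist* and no Y UMIs had 2958 CPM of *Acta2* and 870 of *Myh11*, nearer to the CKO values. The depths of these classes differed, with medians of 1503 UMIs in the control nuclei with Y UMIs, 2842.5 in the CKO nuclei with Y UMIs and 1373.5 in the control nuclei with *Xist*, and their part in the difference was not tested. Among nuclei with at least 2 markers the median log2 ratio was 0.13. It was -0.32 with each nucleus weighted equally and -0.48 with each nucleus thinned to 500 UMIs.

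Regulators of the smooth muscle program differed little. Of 20 such genes with at least 50 UMIs, 0 were past 2-fold in either direction, and the median log2 ratio was 0.02. *Myocd*, the partner of SRF, had 214 and 37 UMIs (ratio 1.04), and *Srf* 12 and 3. *Ebf1*, a transcription factor of mural cells, was at 1826 and 2156 CPM (1.18), *Mef2c* at 819 and 809 (0.988), *Mef2a* at 432 and 515 (1.19) and *Nr2f2*, known from veins, at 416 and 519 (1.25). Of genes tied to a loss of the contractile state, 16 were measured, of which 1 was 2-fold higher and 2 lower, with a median log2 ratio of -0.02. *Klf4*, a repressor of contractile genes, was at a ratio of 0.952, and *Ly6c1*, which was highest in ECs, had 676 and 310 CPM in vSMCs (0.458) and a ratio of 0.469 in ECs.

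Channels and calcium handling included several genes that were lower in the CKO library. Of 27 genes with at least 50 UMIs, 5 were 2-fold lower and 0 higher, and the median log2 ratio was -0.21. *Kcnab1*, a β subunit of voltage-gated potassium channels, was at 694 CPM in control and 271 in CKO nuclei (0.390, 0.302 to 0.497), and was detected in 51.0% and 20.4% of nuclei. The difference was found in each depth class, at 2188 and 98.6 CPM under 1000 UMIs, 801 and 189 CPM from 1000 up to 3000, and 539 and 330 CPM above, and among nuclei with Y and no *Xist* UMIs, at 825 and 279 CPM. In ECs *Kcnab1* was at 10.9 and 9.19 CPM and in its highest label, the neuron cluster Glut_21, at 3069 and 3075. The CKO value in shallow nuclei rests on 3 UMIs (ratio 0.0451, 0.00919 to 0.133). The pericyte markers, 8 of 8 detected and *Rgs5* the most abundant, summed to 5743 and 5299 CPM in vSMCs (0.923, 0.871 to 0.977), with all 7 that had at least 50 UMIs below a ratio of 1, 2 of them past 2-fold, and a median log2 ratio of -0.66. The neuron markers given below were lower in the summed nuclei, at a ratio of 0.651, but higher in nuclei with under 1000 UMIs (1.68, 1.33 to 2.11) and in those with Y and no *Xist* UMIs, at 1634 and 4308 CPM. The part of pericyte and neuron transcripts in these ratios was not tested.

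Several of the other genes of this group had fewer UMIs than *Kcnab1*. *Abcc9*, a subunit of ATP-sensitive potassium channels that also marks pericytes, had 157 and 10 UMIs (0.381), *Casq2*, which stores calcium in the sarcoplasmic reticulum, 76 and 5 (0.394), *Pln*, which restrains the calcium pump, 114 and 9 (0.473), and *Ryr3*, a calcium release channel, a ratio of 0.499. *Ryr2* had 320 and 29 UMIs (0.543) and *Kcnma1*, the large-conductance potassium channel, 398 and 35 (0.527). Among nuclei with Y and no *Xist* UMIs *Ryr2* had 6 and 27 UMIs, at 101 and 137 CPM (1.36, 0.549 to 4.02), and *Kcnma1* 2 and 27 UMIs, at 33.7 and 137 CPM (4.07, 1.02 to 35.3), so that these ratios rest on few control UMIs. *Itpr1*, the store calcium channel opened by IP3, was at ratios of 0.665 in all nuclei and 0.627 in those with Y UMIs. *Cacna1c*, the L-type calcium channel through which the depolarized cell takes up calcium, was at 981 and 848 CPM (0.864, 0.747 to 0.997). Its ratio was 0.422 (0.286 to 0.604), 0.863 and 0.944 from the shallowest to the deepest class. The channel subunit *Cacnb2* was at 705 and 530 CPM (0.753), and *Trpm3* at 1352 and 1800 CPM (1.33).

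Receptors and messengers of vessel tone had 2 of 23 genes 2-fold higher and 0 lower, with a median log2 ratio of -0.06. Of the 23, 5 were above and 18 below a ratio of 1, and the summed ratio of the list was 0.943 (0.909 to 0.978). *Adra1d* and *Avpr1a* had 0 UMIs. *Rgs5*, a brake on G protein signaling in mural cells, was at 4684 and 4660 CPM (0.995). *Prkg1*, the kinase through which nitric oxide relaxes vSMCs, was at 2913 and 2264 CPM (0.777, 0.712 to 0.847). The *Prkg1* ratio was 0.365 (0.291 to 0.454), 0.731 and 0.877 from the shallowest to the deepest class. Of the phosphodiesterases, which break down cyclic nucleotides, *Pde4d* was at 1016 and 1258 CPM (1.24) and *Pde3a* at 947 and 852 (0.899). The 2 higher genes were *Pde1c*, with 57 and 29 UMIs (3.05), and the serotonin receptor gene *Htr1b*, with 40 and 14 (2.10). *Ednra*, the endothelin receptor of vSMCs, was at a ratio of 0.952.

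TGF-β signaling genes lay near the median. Of 22 ligands, receptors and SMADs with at least 50 UMIs, 0 were past 2-fold, the median log2 ratio was 0.13, and *Grem1* had 0 UMIs. *Tgfb2*, a ligand, was at 271 and 406 CPM (1.50, 1.20 to 1.86), *Tgfbr2*, the type II receptor, had 325 and 70 UMIs (1.29, 0.981 to 1.67, and 0.958 among nuclei with Y and no *Xist* UMIs), and *Ltbp4*, which holds latent TGF-β in the matrix, was at 617 and 615 CPM (0.997). *Bmpr2* and *Eng*, receptors of the BMP branch, were at ratios of 0.907 and 0.787. Of 18 target genes 1 was 2-fold higher and 1 lower, with a median log2 ratio of -0.04 and 0 UMIs of *Itgb6*. *Ccn2*, a matrix protein gene that TGF-β induces, had 199 and 60 UMIs (1.81, 1.33 to 2.42), but among nuclei with Y and no *Xist* UMIs was at 371 and 229 CPM. *Id3*, a target of BMP signals, had 870 and 82 UMIs (0.564), and was also lower among nuclei with Y UMIs, at 556 and 259 CPM.

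In the Notch pathway, through which ECs instruct the adjoining vSMCs, 1 of 20 genes was 2-fold lower and 0 higher, with a median log2 ratio of 0.10. The gene was *Hes1*, a direct Notch target, at 654 and 306 CPM (0.468, 0.367 to 0.589). It was lower in each depth class, with ratios of 0.567, 0.569 and 0.364, and in ECs was at a ratio of 0.362, while in glia the ratio was 1.10. Its level in nuclei with Y and no *Xist* UMIs was 1028 and 254 CPM (0.247). *Notch3*, the receptor of mural cells, was at 451 and 488 CPM (1.08), and *Jag1*, its ligand, at 332 and 360 (1.08). *Pdgfrb*, the receptor by which mural cells are recruited, was at 516 and 550 CPM (1.07), and *Pdgfd* at 436 and 434 (0.993). *Cspg4*, which codes for NG2, had 307 and 43 UMIs (0.839, 0.595 to 1.16) and *Icam1*, an adhesion molecule for leukocytes, 36 and 5 (0.832, 0.255 to 2.13).

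Matrix genes showed the largest differences among abundant transcripts. As a group, 3 of 48 were 2-fold higher and 1 lower, with a median log2 ratio of 0.09 and summed levels of 20785 and 21107 CPM. *Mgp*, an inhibitor of calcification in the vessel wall, was at 2036 and 898 CPM (0.441, 0.384 to 0.504). Its ratio was 0.550, 0.377 and 0.352 from the shallowest to the deepest class, and among nuclei with Y and no *Xist* UMIs it was at 2813 and 742 CPM. *Mgp* had its highest level in vSMCs, and was at ratios of 0.655 in ECs and 1.20 in glia. *Fbln5* was at 598 and 321 CPM (0.537, 0.424 to 0.673), and at 539 and 259 CPM among nuclei with Y UMIs. *Eln* was at 3242 and 2574 CPM (0.794, 0.731 to 0.861), and in ECs at a ratio of 0.0930. *Eln* was at 6688 and 2144 CPM (0.321, 0.279 to 0.369) in nuclei with Y and no *Xist* UMIs, and without the 119 control nuclei with both its ratio was 0.518. *Sparc* and *Col4a1*, a collagen of the basement membrane, were at ratios of 1.11 and 1.14.

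*Col1a1*, the chain of fibrillar collagen I, was instead higher in the CKO library, at 470 and 1359 CPM (2.89, 2.54 to 3.29). It was detected in 44.3% and 51.5% of nuclei. The ratio was 1.06 (0.704 to 1.56) under 1000 UMIs, 2.27 from 1000 up to 3000 and 3.62 above, and 2.10 (1.49 to 3.04) among nuclei with Y and no *Xist* UMIs. *Col1a2* was at 850 and 1413 CPM (1.66) and *Col3a1* at 627 and 1107 (1.77), but among nuclei with Y UMIs their ratios were 0.862 and 0.997. *Col1a1*, *Col1a2* and *Col3a1* are also markers of fibroblasts, of which 12 were summed: the list was at 2748 and 4757 CPM in vSMCs (1.73, 1.62 to 1.84), with *Col1a2* the most abundant, 12 of 12 detected, and 7 of 10 genes with at least 50 UMIs above a ratio of 1. The list was not higher in nuclei with under 1000 UMIs (0.839, 0.700 to 0.999) or in those with Y and no *Xist* UMIs, at 4650 and 4435 CPM. Among the others *Dcn* was at a ratio of 1.68, *Pdgfra* at 0.689 and *Cped1* at 0.685, and *Slc47a1* had 7 and 0 UMIs. In nuclei labeled glia, where *Col1a1* was highest, the list was at 14684 and 14045 CPM, and in ECs at 1240 and 892. The nuclei under the glia label were thus rich in fibroblast transcripts, and ratios given for glia are not those of glial cells alone. The part of fibroblast transcripts in the *Col1a1* difference was not tested.

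Among genes of inflammation, 1 of 16 was 2-fold higher and 1 lower, with a median log2 ratio of 0.24. *Il1r1*, the receptor for interleukin-1, had its highest level in vSMCs and was at 209 and 468 CPM (2.24, 1.80 to 2.76), detected in 31.2% and 31.1% of nuclei. Among nuclei with Y and no *Xist* UMIs it was at 455 and 498 CPM (1.09), so that the difference there was small. *Nfkbia*, an inhibitor of NF-κB, was at 411 and 604 CPM (1.47), *Cxcl12*, a chemokine, at 419 and 271 (0.647), and *B2m* at 400 and 372 (0.930). The 12 immediate early genes had a median log2 ratio of 0.32, with *Btg2* at 204 and 333 CPM (1.63), *Klf2* at 330 and 360 (1.09), and 0 UMIs of *Fosb*.

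Among genes with at least 200 UMIs, the highest in the CKO library were *G3bp1*, a stress granule protein gene (3.08), *Col1a1* and the matrix protease gene *Adamts9* (2.63). Next were *Ildr2* (2.62), *Klhl5* (2.48), the RNA-binding protein gene *Khdrbs1* (2.27), *Il1r1* and *Itm2c* (2.21). *Cpe*, a peptide processing enzyme gene (2.10), and *Npas3* (2.05) came last of the 10. In ECs the ratio was 4.21 for *Ildr2*, 2.26 for *Adamts9*, 2.02 for *Itm2c* and 1.73 for *Cpe*. It was 1.54 for *Khdrbs1*, 1.48 for *Klhl5* and 1.47 for *G3bp1*. For *Npas3* it was 1.07 (0.948 to 1.22), for *Il1r1* 1.03 (0.948 to 1.12) and for *Col1a1* 0.665. How many of all genes were above 1 in ECs was not counted. The ratio in nuclei with Y and no *Xist* UMIs was 1.43 for *Itm2c*, and 4.12 for *Khdrbs1* and 8.74 for *Cpe* on 3 control UMIs each, and *Npas3* had 0 and 61 UMIs there. Of the 12 higher genes 1 (8.33%), *Il1r1*, had its highest control level in vSMCs, against 5.50% of all 2109, and 3 of the 12 had it in astrocytes, against 99 of 2109 (4.69%). The astrocyte markers, 10 of 10 detected and *Slc4a4* the most abundant, summed to 1009 and 1401 CPM in vSMCs (1.39, 1.24 to 1.56). By depth they were at 410 and 1873 CPM under 1000 UMIs, 1042 and 2495 from 1000 up to 3000, but 1053 and 942 above. The part of astrocyte transcripts in these ratios was not tested.

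Among genes with at least 200 UMIs, the lowest ratios after *Xist* (0.00720) belonged to genes whose highest control level was in a neuron cluster. They were *Unc5d*, a guidance receptor gene, with 223 and 7 UMIs (0.188), the GABA receptor gene *Gabrb2* with 252 and 8 (0.190), *Hdac9* (0.244), *Stmn2*, a microtubule regulator of axons (0.252), *Gpr158* (0.260), *Hecw2* (0.262), *Cdh8* (0.271), *Chrm3* (0.274) and *Dgkg* (0.276). Of the 70 lower genes, 50 (71.4%) had their highest control level in a neuron cluster, against 763 of all 2109 (36.2%). The neuron markers, 12 of 12 detected and *Kcnip4* the most abundant, summed to 5884 CPM in control and 3828 in CKO vSMCs (0.651, 0.609 to 0.695), and their part in these ratios was not tested. In nuclei with Y and no *Xist* UMIs the direction turned, with the markers at 1634 CPM (1325 to 1993) in control and 4308 (4023 to 4608) in CKO nuclei. There *Gabrb2*, *Hdac9*, *Stmn2*, *Gpr158* and *Chrm3* had ratios above 1 on 9 to 12 UMIs each. *Unc5d* and *Hecw2* had 0 UMIs in control and 7 and 9 in CKO nuclei of this class. *Cdh8* (0.754, on 4 and 10 UMIs) and *Dgkg* (0.339, on 8 and 9 UMIs) stayed below 1. Markers of the choroid plexus summed to 5042 and 2516 CPM (0.499), most of them from *Ttr*, the transthyretin gene, with 6797 and 519 UMIs (0.457, and 0.150 among nuclei with Y and no *Xist* UMIs).

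Of the 70 lower genes 3 (4.29%) had their highest control level in vSMCs, against 116 of all 2109 (5.50%): *Mgp*, *Igfbp3* and *Mustn1*. *Igfbp3*, which binds insulin-like growth factors, was at 890 and 352 CPM (0.396, 0.317 to 0.490) and was detected in 63.0% and 34.0% of nuclei. Its ratio was 0.257, 0.289 and 0.455 in the 3 depth classes, and among nuclei with Y and no *Xist* UMIs it was at 927 and 356 CPM (0.384). *Mustn1*, a small nuclear protein gene of muscle, was at 212 and 89.0 CPM (0.420, 0.262 to 0.641), with 328 and 23 UMIs, and among nuclei with Y UMIs at 253 and 66.0. In control nuclei with *Xist* and no Y UMIs, *Igfbp3* was at 757 and *Mustn1* at 231 CPM, so that the control values of both lay together. In ECs the ratios were 0.521 for *Igfbp3* and 0.488 for *Mustn1*. Of 862 genes higher in vSMCs than in every neuron cluster, 5 were 2-fold higher and 11 lower in the CKO library.

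The promoters of the contractile genes were searched for the CArG box, the sequence bound by SRF, on both strands, in RefSeq promoters of build GRCm38.p6 from 250 bases before to 50 after the start. Of the 36 contractile genes 31 had a promoter in the table, and 6 of these (19.4%) had a match, against 488 of 27025 genes (1.81%). These were *Myl9*, *Cnn2*, *Myl6*, *Vcl*, *Ldb3* and *Filip1l*. Each of their matches had the form CC, then 6 bases of A or T, then GG. A match is a description and not a shown site. The promoters of *Acta2* (chr19:34255324-34255623, minus strand) and *Cnn1* (chr9:22099003-22099302, plus strand) are shown because the genes mark the cells, and held no exact match in these windows. The *Acta2* window does hold ccctatatgg and ccttgtttgg, which each differ from that form at a single base and were not counted. The absence of an exact match is therefore not the absence of a CArG-like sequence. Those of *Myl9* (chr2:156775214-156775513, plus strand), *Cnn2* (chr10:79988350-79988649, plus strand) and *Vcl* (chr14:20929148-20929447, plus strand) are shown for their matches, in capitals, which begin 161, 56 and 227 bases before the start:
Acta2: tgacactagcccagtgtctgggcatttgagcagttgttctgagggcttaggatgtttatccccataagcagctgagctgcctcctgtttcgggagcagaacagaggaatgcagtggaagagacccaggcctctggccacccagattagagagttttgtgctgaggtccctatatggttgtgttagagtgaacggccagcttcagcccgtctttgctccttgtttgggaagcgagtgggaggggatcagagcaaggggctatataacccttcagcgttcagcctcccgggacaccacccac
Cnn1: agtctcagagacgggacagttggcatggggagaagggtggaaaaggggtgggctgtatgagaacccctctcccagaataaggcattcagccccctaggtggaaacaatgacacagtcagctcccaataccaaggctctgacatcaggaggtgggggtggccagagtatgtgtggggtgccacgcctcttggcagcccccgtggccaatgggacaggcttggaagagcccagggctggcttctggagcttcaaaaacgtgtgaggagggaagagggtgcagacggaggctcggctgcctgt
Myl9: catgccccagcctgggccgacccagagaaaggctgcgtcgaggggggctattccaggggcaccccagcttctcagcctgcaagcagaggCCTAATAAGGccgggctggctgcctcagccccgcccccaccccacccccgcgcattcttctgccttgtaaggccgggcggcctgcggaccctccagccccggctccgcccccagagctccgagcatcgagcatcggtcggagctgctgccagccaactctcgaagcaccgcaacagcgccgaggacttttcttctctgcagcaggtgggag
Cnn2: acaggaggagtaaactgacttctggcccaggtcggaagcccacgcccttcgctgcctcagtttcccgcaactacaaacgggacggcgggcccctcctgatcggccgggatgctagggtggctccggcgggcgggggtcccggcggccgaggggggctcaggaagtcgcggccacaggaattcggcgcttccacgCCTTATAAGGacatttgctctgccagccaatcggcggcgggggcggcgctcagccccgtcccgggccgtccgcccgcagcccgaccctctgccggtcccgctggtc
Vcl: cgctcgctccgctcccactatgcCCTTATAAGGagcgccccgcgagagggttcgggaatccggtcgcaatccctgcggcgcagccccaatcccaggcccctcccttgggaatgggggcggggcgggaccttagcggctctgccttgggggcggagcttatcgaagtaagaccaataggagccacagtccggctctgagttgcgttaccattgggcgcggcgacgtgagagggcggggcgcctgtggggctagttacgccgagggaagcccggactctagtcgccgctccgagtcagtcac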

How the data were processed

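The deposited matrix holds integer UMIs. By the paper, the authors counted with PIPseeker, took off background with CellBender, and filtered doublets by SOLO and by manual curation; the counts were used as deposited, with no further filter on nuclei. Removal of background lowers free RNA but may leave RNA of adjoining cells. Library and label came from the barcode suffix and the authors' cluster file; their normalized values and coordinates were not used. UMIs were summed over the vSMC nuclei of each library and divided by their total. Median log2 ratios had 0.5 UMIs added, as had the folds of vSMCs against all other nuclei, pericytes or ECs. Single ratios of CKO over control had none. The label with the highest control level of a gene was taken among labels with at least 100000 control UMIs. This left out microglia, with 79925. Intervals are the exact Poisson for levels, the exact binomial for shares and the exact conditional binomial for ratios. The members and lists were chosen with earlier results of these data known. Nuclei with both Xist and Y UMIs, control nuclei with Xist alone and genes above neuron clusters were examined after seeing the data. Gene symbols Mrvi1, Mx1 and Ca9 were not in the file. A gene among those compared with pericytes is not reported here.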

Additional observations from a re-analysis of the deposited data

How the results depend on the processing

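No paired analysis was possible because each genotype has 1 library, whose nuclei share no pairing. The causes of the changes below were not tested. The ratio of vSMC shares stayed below 1 under all 4 alternatives; it was 0.408 by markers in place of the label and 0.478 among nuclei with Y and no Xist UMIs. The median log2 ratio of contractile genes (-0.05) was -1.34 without nuclei with an endothelial marker UMI (34 and 8 nuclei left), 0.13 with at least 2 markers, -1.17 with Y and no Xist UMIs, -0.51 without nuclei with both, -0.32 with nuclei weighted equally and -0.48 with nuclei thinned to 500 UMIs; TMM factors gave -0.14.

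Genes at least 2-fold higher and lower (12 and 70 of 2109) were 36 and 174 of 4136 from 100 UMIs, 3 and 24 of 843 from 400 UMIs, 2 and 4 of 7 without nuclei with an endothelial marker UMI, 12 and 17 of 106 with Y and no Xist UMIs, 7 and 74 of 1984 with at least 1000 UMIs, 4 and 25 of 676 against control nuclei with Xist alone, 5 and 29 of 844 without nuclei with both Xist and Y UMIs, 5 and 11 of 862 among genes above every neuron cluster, 8 and 96 of 2109 with TMM factors and 8 and 92 with the median of ratios; where fewer genes were measured, that is part of the difference.

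For 38 named genes, 162 of 247 ratios under alternatives stayed within the interval of the first, 78 left it and 7 turned, which here means that a ratio past 2-fold crossed 1. In all 19 crossed 1, of which Hecw2 and Fbln5 without nuclei with an endothelial marker UMI did so only as upper limits, with 0 CKO UMIs. The 12 not counted as turned belonged to genes not past 2-fold at first: Cnn1 (4 alternatives, 0.251 with Y and no Xist UMIs), Col1a2, Col3a1 and Tgfbr2 (2 each), Acta2 and Fbln5, with 6 UMIs in control and 0 in CKO nuclei, whose 1.42 comes from the floor described below. Turned with Y and no Xist UMIs were Gabrb2 (1.21), Hdac9 (3.32), Stmn2 (1.21), Gpr158 (1.36) and Chrm3 (2.41), on 9 to 12 UMIs each, and without nuclei with an endothelial marker UMI Ttr (3.22) and Hecw2, with 5 UMIs in control and 0 in CKO nuclei, whose 1.71 is an upper limit. These ratios use a floor of 3 UMIs at a count of 0 and are left out where both counts are at most 3, a rule adopted after the ratios had first been computed with 0.5 UMIs at a control count of 0. By that first computation 13 of 259 turned and 161 stayed within the interval: added to those above were Unc5d (4.22) and Hecw2 (5.43) with Y and no Xist UMIs, and Hdac9 (2.85), Stmn2 (5.70), Gpr158 (5.70), Adamts9 (0) and Il1r1 (0.950) without nuclei with an endothelial marker UMI, on 1 to 9 UMIs each, while Hecw2 without such nuclei did not turn.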

Other observations

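In vSMCs, 6 genes of the cell cycle had at least 50 UMIs and all 6 were above a ratio of 1, as were 3708 of all 6796 genes with at least 50 UMIs. Among the 6, Top2a was at 69.2 CPM in control and 132 in CKO nuclei (1.90, 1.25 to 2.82) and Ccnd2 at 660 and 674 (1.02). Of the hypoxia and glycolysis list, Epas1 was at 1206 and 1362 CPM and Slc2a1 at 1215 and 1061. Of the integrins, Itga1 was at 1306 and 1494 CPM and Itgb1 at 751 and 794. Astrocyte markers summed to 1009 and 1401 CPM in vSMCs (1.39) and microglia markers to 412 and 391 (0.949).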
